A study of Arabidopsis thaliana with 2 samples.

Results

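The myrosinase system and the vegetative storage proteins of Arabidopsis thaliana were followed through 8 genes. They are the myrosinase genes TGG1 (AT5G26000) and TGG2 (AT5G25980), the myrosinase-binding protein genes MBP1 (AT1G52040) and MBP2 (AT1G52030), the epithiospecifier gene ESP (AT1G54040), its modifier ESM1 (AT3G14210), and the storage protein genes VSP1 (AT5G24780) and VSP2 (AT5G24770). They were taken by gene identifier, and all 8 were found among the 31280 genes of the deposited table. The material was clusters of unopened, immature flower buds of the accession Col-0, with no treatment given in the labels. It gave 2 libraries, 1 of single-stranded RNA, deposited as 33187 stretches called hotspots, and 1 of ribosome-bound RNA, in which monosome and polysome fractions were combined, with 9574408 mapped clones. This RNA was fragmented chemically, so a clone is a piece of a ribosome-bound transcript and not a ribosome footprint. The label of the first library calls RNase ONE a double-strand nuclease, whereas the enzyme sold under that name cuts unpaired RNA, and whether a hotspot marks paired or unpaired RNA is therefore not stated. With 1 library for each assay no difference below has a replicate check, no p-value is given, and intervals are 95% intervals for counting error only.

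Myrosinases are thioglucosidases that cut glucosinolates, the sulfur-rich defence compounds of the cabbage family, once damaged tissue brings enzyme and substrate together. In leaves the enzymes are stored in vacuoles of myrosin cells and guard cells, apart from the glucosinolate-rich cells. The unstable product then turns into an isothiocyanate, or into a nitrile or epithionitrile where a specifier protein such as ESP is present, and Col-0 is known for forming mainly isothiocyanates. Vegetative storage proteins are vacuolar proteins of the acid phosphatase family whose genes are well-known targets of the hormone jasmonate.

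The 3 gene pairs are tandem or near-tandem copies, and their sequences show where clones could belong to either copy. On the RefSeq annotation of TAIR10.1, TGG1 and TGG2 lie on chromosome 5 on opposite strands, 3674 nt apart, with 12 exons each. MBP2 and MBP1 lie side by side on the minus strand of chromosome 1, 1225 nt apart, and VSP2 and VSP1 on the minus strand of chromosome 5, 5365 nt apart. ESP (chromosome 1) and ESM1 (chromosome 3) belong to none of these pairs, and whether related genes lie beside them was not examined. Aligned coding sequences were 82.7% identical for the myrosinases (1327 of 1604 nt), 82.1% for the binding proteins (1115 of 1358 nt) and 90.4% for the storage proteins (715 of 791 nt). The longest run without a difference was 55, 66 and 54 nt in the same order. Each run is shown with 15 further bases on either side, compared without gaps. All lie within 1 coding exon, and capitals mark the bases that differ between the copies.
TGG1, chr5:9080574-9080658, minus strand: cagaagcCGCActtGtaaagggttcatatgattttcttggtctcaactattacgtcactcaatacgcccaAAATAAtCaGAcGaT
TGG2, chr5:9074494-9074578, plus strand: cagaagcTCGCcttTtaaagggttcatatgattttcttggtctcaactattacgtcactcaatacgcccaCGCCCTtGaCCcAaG
MBP1, chr1:19350689-19350784, minus strand: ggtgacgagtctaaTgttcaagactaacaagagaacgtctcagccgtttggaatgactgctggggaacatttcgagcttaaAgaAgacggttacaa
MBP2, chr1:19346184-19346279, minus strand: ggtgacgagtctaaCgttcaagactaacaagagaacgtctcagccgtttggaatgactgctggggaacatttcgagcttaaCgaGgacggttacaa
VSP1, chr5:8508579-8508662, minus strand: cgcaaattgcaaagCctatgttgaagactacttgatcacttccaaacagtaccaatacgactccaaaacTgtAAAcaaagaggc
VSP2, chr5:8501549-8501632, minus strand: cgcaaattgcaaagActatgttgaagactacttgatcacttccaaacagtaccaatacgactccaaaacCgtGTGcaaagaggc

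Inside the runs a short clone fits both copies, while the flanks tell them apart by 16 bases in the myrosinases, 3 in the binding proteins and 5 in the storage proteins. Of the 20-mers of each mRNA, 5.94% of those of TGG1 also occurred in TGG2, 13.7% of those of MBP1 in MBP2 and 15.3% of those of VSP1 in VSP2. The authors weighted the clones, by a rule the labels do not state. The ratio of weighted to unweighted clones, called the mean weight, was 0.793 for TGG1, 0.776 for TGG2, 0.676 for MBP2 and 0.620 for MBP1. It was 0.776 for VSP1 and 0.679 for VSP2, and highest for the genes outside the pairs, at 0.908 for ESM1 and 0.962 for ESP. All 8 lay above the median of 0.583 over the nuclear protein-coding genes with a clone.

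All 8 genes were above the median gene in ribosome-bound RNA, and 7 of them by at least 10 times. Levels are in RPKM, weighted clones scaled by the listed transcript length and by the mapped clones of the library. The median gene is that of the 23419 nuclear protein-coding genes above 0, at 0.246 RPKM. Over all 26633 such genes, 44.0% lay above it and 5.02% at or over 10 times its level. The median of the 8 genes was 9.02 RPKM, 36.7-fold over the median gene. These values depend on the genes compared: among genes with at least 10 weighted clones the fold was 7.72, ESP lay below the median gene of 1.17 RPKM and 4 of the 8 reached 10 times it. With the background held to mean weights of 0.5 or more, the fold was 22.8 and 6 of the 8 reached 10 times, ESM1 being lost there, as it was without the weights and with the annotated length. The 8 make up 0.0300% of these 26633 genes and held 0.563% of the 277374 weighted clones on them. This is not a share of the 9574408 mapped clones of the library. Of the weighted clones of the 8, 85.7% fell on the myrosinase and storage protein pairs. In a library of whole bud clusters, fewer cells of a type and less RNA per cell cannot be told apart.

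The storage protein gene VSP1 had the highest level, 41.1 RPKM (37.2 to 45.2), from 544 clones weighted to 422. It ranked 31 of 26633 genes, 167-fold over the median gene. VSP2, its tandem copy, stood at 13.0 RPKM (11.2 to 15.1), from 260 clones weighted to 176. VSP1 was 3.15 times VSP2 (2.64 to 3.79), so the copies differed by more than counting error.

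Of the myrosinases, TGG2 was the higher one, at 27.0 RPKM (24.7 to 29.6), from 620 clones weighted to 481. TGG1 stood at 14.8 RPKM (13.0 to 16.7), from 327 clones weighted to 259. TGG2 was 1.83 times TGG1 (1.57 to 2.14), and the genes ranked 55 and 143.

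The myrosinase-binding proteins are lectins with jacalin domains that associate with myrosinase, and the RefSeq notes record their expression in flowers. MBP2 stood at 5.01 RPKM (4.12 to 6.05) and MBP1 at 4.12 RPKM (3.19 to 5.24). Their ratio of 1.22 (0.894 to 1.69) included 1, so no difference between these copies was detectable at this depth. They ranked 639 and 796. Without the weights MBP1 stood at 6.65 RPKM, 1.61 times the weighted value, and MBP2 at 7.42 RPKM.

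The genes that steer the products of hydrolysis were the lowest of the 8. ESM1, which favours isothiocyanate over nitrile and belongs to the GDSL lipase-like family, stood at 2.49 RPKM (1.74 to 3.46), from 39 clones. ESP, which turns the hydrolysis towards nitriles and epithionitriles, stood at 0.953 RPKM (0.50 to 1.65), from 13 clones. ESM1 was 2.62 times ESP (1.37 to 5.70), an interval made wide by the few clones of ESP. TGG2 was 28.4 times ESP (16.7 to 57.5) and 10.8 times ESM1 (7.77 to 15.9).

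**Figure D1:**
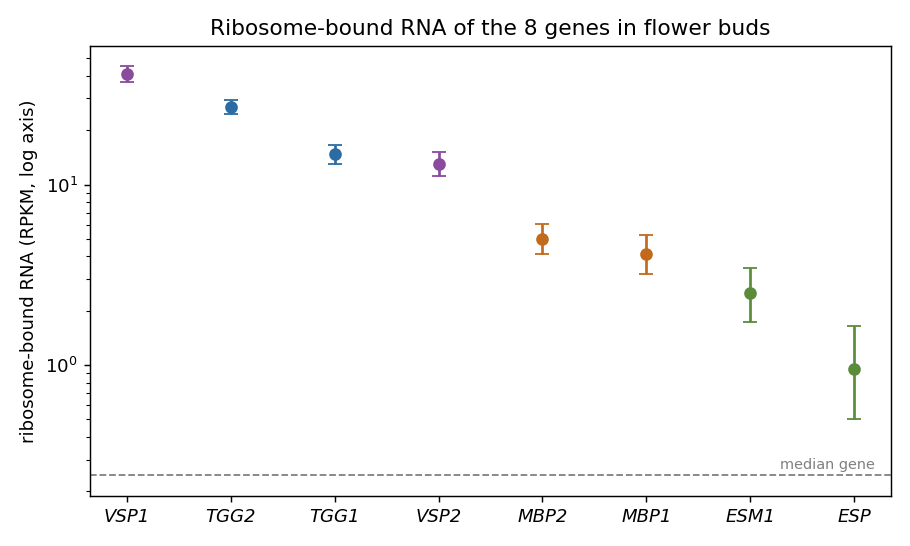
Ribosome-bound RNA of the 8 genes in the bud library, in RPKM on a log axis, with 95% counting intervals as bars and the median gene as a dashed line. Colours mark the pairs, and the order runs from VSP1 at 41.1 RPKM to ESP at 0.953 RPKM, all above the median gene at 0.246 RPKM.

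In the order of levels, from VSP1 over TGG2, TGG1, VSP2, MBP2, MBP1 and ESM1 to ESP, 3 neighbours had intervals that overlap. TGG1 was 1.13 times VSP2 (0.933 to 1.38), which does not separate them. MBP2 and MBP1 were not separated either. MBP1 was 1.65 times ESM1, and the interval of that ratio (1.09 to 2.58) lay just above 1 although the separate intervals met.

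The table lists 15 isoforms of the 8 genes, and they shared nearly all of their clones. The 3 isoforms of TGG2 had 620 or 621 clones each and both of TGG1 had 327. MBP2 gained 1 clone in the longer isoform AT1G52030.2. The storage protein gene VSP2 differed. Its isoform AT5G24770.2 is listed as 93 nt longer than AT5G24770.1, which is the length of the second intron in the annotation, and held 8 more clones, 268 against 260. The weighted clones also rose by 8. That equals 8.98 RPKM over the 93 nt (3.88 to 17.7), or 69.0% of the RPKM listed for AT5G24770.1 (29.4 to 139). The isoforms share nearly all their clones, so the listed value is not a level of spliced RNA alone. The 8 clones are a net difference between the isoforms, the interval is wide, and unspliced RNA cannot be told apart from a finished isoform. In the annotation the reading frame of AT5G24770.2 ends at once in this segment, which shortens the coding sequence from 798 to 627 nt. The 30 bases at the border are shown because they hold that stop. The first 15 are exon, the last 15 are the retained intron, which starts with GT and ends with AG, and capitals mark the stop codon.
VSP2, chr5:8500966-8500995, minus strand, TAIR10.1: gcatctcatattgaagTAAgaatattcaag

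Hotspots lay on 6 of the 8 genes on the strand of the gene. Over all nuclear protein-coding genes 52.3% had at least 1, and of the 3568 genes with a level at or above that of ESP 62.2% had, so 6 of 8 does not stand out. TGG1 and ESM1 had none. No gene of the 8 had a hotspot on the opposite strand, where 5.27% of all genes had. The 9 hotspots covered 4.97% of the 8 mRNAs, near the 4.23% of all mRNAs and the 4.64% of those at or above the level of ESP.

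The hotspots lay in coding sequence. Of their 697 bases, 696 were coding and 1 lay in an intron, while 74.3% of the 8 mRNAs is coding. Over the hotspots on all nuclear protein-coding mRNAs 80.3% of the bases were coding and 67.5% of the hotspots lay wholly in coding sequence, and no test of this difference was made. None of the 9 touched a UTR. Positions on the mRNA use the TAIR10.1 annotation and are counted from the A of the start codon, and genome positions of hotspots are in TAIR9. How the deposited score was computed is not stated in the labels, nor is whether a low or a high score marks the stronger hotspot, and many hotspots share a score. The median score of the 9 was -2.43, against -2.62 over all hotspots, and 4 of the 9 were lower than that. Their lengths ran from 51 to 128 nt with a median of 66 nt, and the median of all hotspots was 64 nt.

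**Figure D2:**
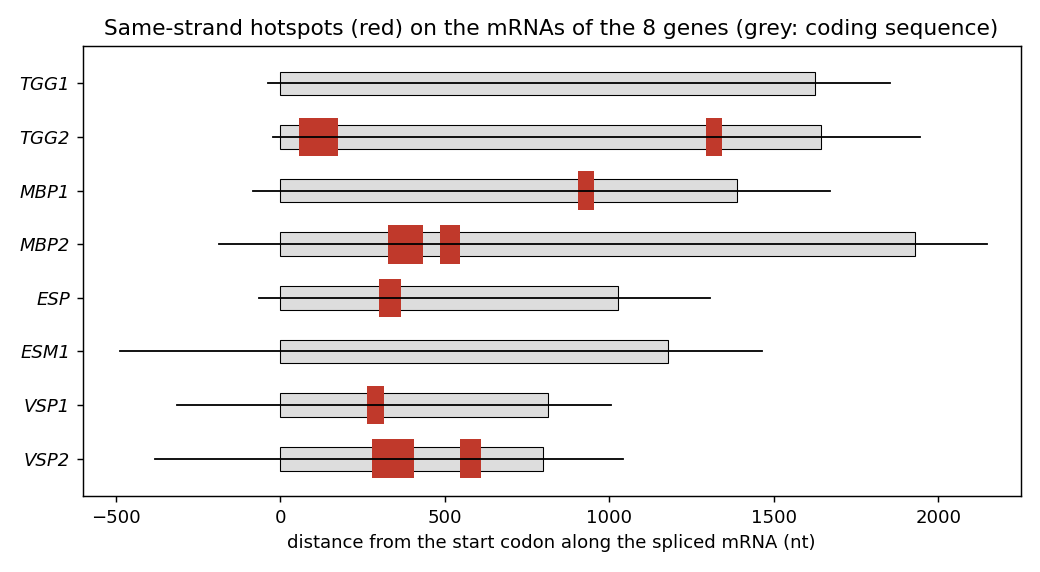
The spliced mRNAs of the 8 genes, drawn in nt from the start codon, with the coding sequence as a grey box, UTRs as a line and same-strand hotspots in red. The 9 hotspots lie on 6 genes within coding sequence, and TGG1 and ESM1 have none.

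Between the myrosinases the hotspots differed in number. TGG2 had 1 of 119 nt at chr5:9072788-9072906, coding bases 59 to 177 in the first exon, with a score of -3.03. Its other hotspot, of 51 nt at chr5:9075033-9075083, covered coding bases 1295 to 1344 in exon 11 of 12, with a score of -2.08. The matching stretches of TGG1, coding bases 26 to 141 and 1265 to 1311, were 75.9% and 65.2% identical to those of TGG2 and carried no hotspot. None of the 20-mers in either hotspot occurred elsewhere in the genome. TGG2 was also the gene with 1.83 times the level, and the part of level in this difference was not tested. How deeply the hotspot library was sequenced is unknown.

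The binding protein genes carried hotspots that did not overlap in the alignment of the copies. MBP2 had 1 of 105 nt at chr1:19347762-19347866, coding bases 329 to 433, and 1 of 60 nt at chr1:19347649-19347708, coding bases 487 to 546, both in exon 3 of 5. MBP1 had 1 of 51 nt at chr1:19351113-19351163, coding bases 905 to 955 in exon 3 of 4. The first of MBP2 and that of MBP1 had the same score of -3.59, which 12.6% of all hotspots share. The hotspot of MBP1 aligned to coding bases 1436 to 1495 of MBP2 at 84.3% identity, far from both hotspots there. In the other direction the 105-nt hotspot of MBP2 aligned over 82 nt at 62.2% identity, to positions -77 to 10 of MBP1, mostly before its start codon. The 60-nt one aligned to coding bases 37 to 99 at 60%. The coding sequence is 1929 nt in MBP2 and 1389 nt in MBP1. The aligned coding sequences were 82.1% identical, so a true counterpart of these 2 stretches in MBP1 is uncertain. Their lack of overlap with the MBP1 hotspot therefore cannot be read as a difference between matching sequences. The 20-mers of all 3 were found at no other place.

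In the storage protein genes the hotspots did meet. VSP1 had 1 of 51 nt at chr5:8508575-8508625, coding bases 265 to 315, with a score of -1.70. VSP2 had 1 of 128 nt at chr5:8501439-8501566, coding bases 279 to 406, with a score of -3.47, and 13.1% of all hotspots had a lower one. In the alignment the VSP1 hotspot falls on coding bases 250 to 300 of VSP2 and overlaps the VSP2 hotspot by 22 nt. The VSP1 hotspot reaches into the 54-nt run printed above, and 13 of its 32 20-mers occur elsewhere in the genome, as do 24 of 109 in the VSP2 hotspot. Reads from 1 copy that were placed on the other therefore cannot be told apart from signal of both. A further hotspot of VSP2, of 66 nt at chr5:8500992-8501057, covered coding bases 547 to 612 in exon 2 of 3, just before the retained intron, with a score of -2.43. Its match in VSP1 was 81.0% identical and had no hotspot.

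ESP carried 1 hotspot of 66 nt at chr1:20171654-20171719, coding bases 302 to 367 in the second exon. Its score of -1.27 is shared by 12.6% of all hotspots, and 87.4% had a lower one. Relative to length, VSP2 had the most hotspot sequence, 136 nt per kb of mRNA, then TGG2 with 86.0, MBP2 with 70.7, ESP with 48.2, VSP1 with 38.7 and MBP1 with 29.1. Among the 13932 genes with a hotspot the median was 61.1 nt per kb, so VSP1, the gene of highest level, lay below it.

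The pathway around the 8 genes was sampled with 82 further genes in 10 lists, chosen with earlier results of these data known. Of these, 39 were above the median gene (background 44.0%) and 41 had a hotspot (background 52.3%). Their median was 0.211 RPKM, none reached VSP1, and 13 exceeded ESP.

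Other myrosinases all stood below TGG1 and TGG2. PEN2, an atypical myrosinase that acts on indole glucosinolates, was highest at 0.767 RPKM (0.427 to 1.27), and TGG5, a myrosinase known from roots, was lowest at 0.0122 RPKM, from 1 clone. Of these 6 genes 2 were above the median gene, near the 44.0% of all genes, and none had a hotspot. The mean weight was under 0.5 in 5 of the 6, and its part in the low values was not tested. At 0.767 RPKM, PEN2 stood below TGG1 and TGG2 by more than their intervals.

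Among nitrile-specifier and nitrilase genes, 4 of 8 were above the median gene. NIT1, a nitrilase, was highest at 15.4 RPKM (13.4 to 17.7), with an interval that overlaps that of TGG1, and no hotspot. NSP4, a nitrile-specifier protein gene, was lowest at 0.0289 RPKM. Its relative NSP5, named after its value was seen, stood at 5.01 RPKM (3.88 to 6.36), and NSP1, NSP2, NSP3 and NSP4 were each at or under 0.107 RPKM.

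Of 11 jacalin lectin genes 3 were above the median gene. JAL35, also known as a jasmonate-responsive gene, was highest at 5.31 RPKM (4.21 to 6.60), close to MBP2, and AT1G52100 was listed at 0, where 3 weighted clones, the limit a count of 0 allows, would give 0.199 RPKM. The upper end of its 95% interval is 0.245 RPKM, and the limits given below for other genes at 0 use the 3 clones. Of the 6 GDSL lipase-like genes 3 were above it, from AT1G54020 at 1.29 RPKM (0.737 to 2.10) to GLL22, listed at 0 with a limit of 0.195 RPKM. Of the 6 acid phosphatase genes related to the storage proteins 2 were above it, from AT4G29260 at 1.5 RPKM (0.858 to 2.43) to AT5G51260 at 0.0522 RPKM. VSP1 and VSP2 both lay above the interval of AT4G29260.

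Genes that make glucosinolates lay mostly below the 8 genes, and GGP1 was the only gene of the 3 synthesis lists to exceed ESP. ESP itself rests on 13 clones, and the intervals of CYP83A1 and SOT16, among others, overlap its own. Of the 12 aliphatic synthesis genes 4 were above the median gene and none exceeded ESP. CYP83A1, a cytochrome P450 that oxidises aldoximes, was highest at 0.788 RPKM (0.420 to 1.34), and MAM3, a chain-elongating synthase gene, was listed at 0 with a limit of 0.174 RPKM. Hotspots were present on 8 of the 12, where 52.3% of all genes had one. Of the 5 indole synthesis genes 2 were above the median gene, from the sulfotransferase gene SOT16 at 0.692 RPKM (0.316 to 1.32) to CYP81F2 at 0.0303 RPKM. All 3 genes shared by the branches were above it, from GGP1, a gamma-glutamyl peptidase gene, at 3.24 RPKM (2.22 to 4.57) to the C-S lyase gene SUR1 at 0.363 RPKM. Of the 8 regulators and transporters 2 were above it. GTR1, a glucosinolate transporter gene, was highest at 0.713 RPKM (0.393 to 1.19), and MYB76, a regulator gene, was lowest at 0.0205 RPKM.

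Of the 17 jasmonate response genes 14 were above the median gene (background 44.0%) and 4 were at least 10 times it (background 5.02%). A hotspot lay on 14 (background 52.3%). LOX2, a lipoxygenase of jasmonate synthesis, was highest at 11.4 RPKM (10.2 to 12.8), near VSP2, and TAT3, an aminotransferase gene, was lowest at 0.0424 RPKM. The list median was 0.763 RPKM, 3.11-fold over the median gene. JAZ9, a repressor of the response named after its value was seen, stood at 6.45 RPKM (5.09 to 8.06).

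**Figure D3:**
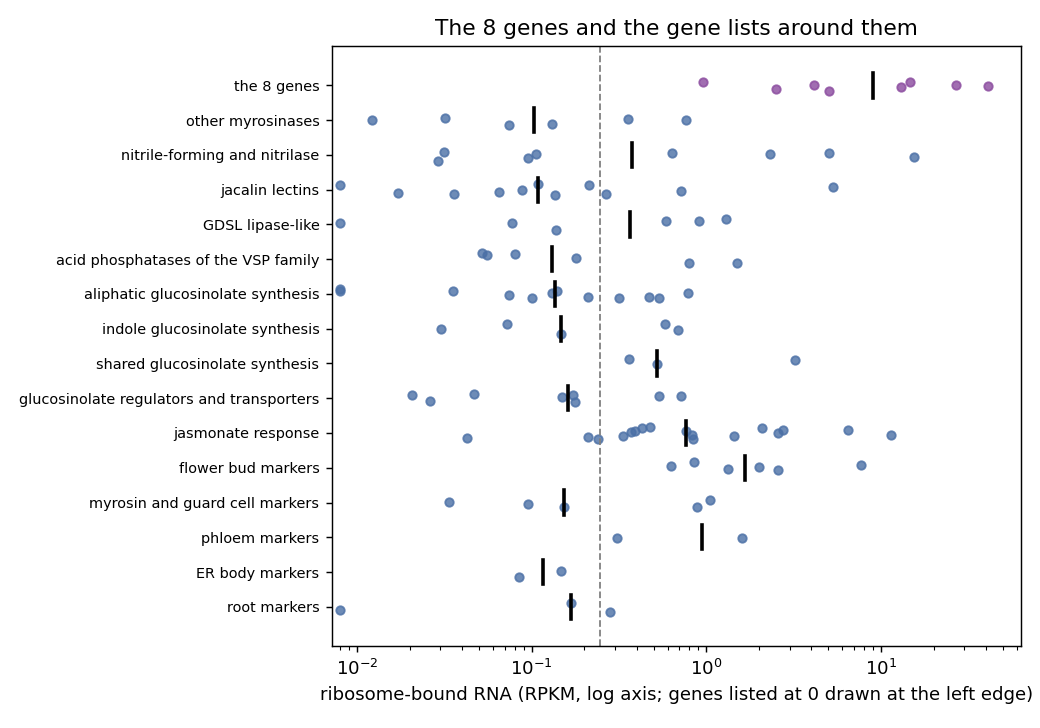
Ribosome-bound RNA in RPKM on a log axis for the 8 genes (purple) and the genes of each list (blue), with list medians as black bars and the median gene as a dashed line. The 8 genes lie to the right of the median gene, and the lists of glucosinolate synthesis by branch, regulators and other myrosinases have medians to its left.

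All 6 floral identity genes were above the median gene (background 44.0%), from PI at 7.71 RPKM to LFY at 0.627 RPKM. This alone does not identify the tissue, since the phloem marker SUC2 was also above the median gene. The phloem marker APL and the root marker IRT1 lay above it by their point values only. Their intervals, 0.0873 to 0.766 and 0.0719 to 0.745 RPKM, include the median gene. Of the myrosin and guard cell markers, 2 of 5 were above it, ICE1, a partner of FAMA, at 1.05 RPKM and SYP22 at 0.883 RPKM. KAT1 stood at 0.0958 RPKM (0.0125 to 0.337) and the guard cell regulator gene MYB60 was lowest at 0.0336 RPKM. FAMA, KAT1 and MYB60 were thus below the median gene, though their intervals include it. FAMA, the regulator that specifies both cell types, stood at 0.153 RPKM (0.0258 to 0.486), from 12 clones weighted to 2.53, a mean weight of 0.211. The phloem markers were SUC2 at 1.59 RPKM and APL at 0.306 RPKM. Markers of ER bodies, the endoplasmic compartments that hold another beta-glucosidase, were low, with NAI1 at 0.148 and NAI2 at 0.0845 RPKM. Root markers ran from IRT1 at 0.282 RPKM over EXPA7 at 0.169 RPKM to PHT1;1, a phosphate transporter gene listed at 0. The part of these cell types in the levels of the 8 genes was not tested.

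The neighbours of the tandem pairs did not share their levels. The 13 protein-coding genes that lie between or next to the pairs (2 on each side) had a median of 0.137 RPKM, and 3 were listed at 0. AT5G25990, an acetylglucosaminyltransferase-family gene between TGG2 and TGG1, was listed at 0 on a short listed transcript, with a limit of 1.02 RPKM. The highest of the 13 was FC1, a ferrochelatase gene beyond TGG1, at 0.815 RPKM (0.465 to 1.32). The lectin gene AT1G52000 beside MBP2 stood at 0.717 RPKM (0.417 to 1.15), and AT1G52050 beside MBP1 at 0.137 RPKM. Around the storage protein pair the levels ran from 0.191 RPKM for AT5G24760 to 0.580 RPKM for BZIP9, a transcription factor gene. Hotspots lay on 4 of the 13, where 52.3% of all genes had one, and AT5G24760 had 3.

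**Figure D4:**
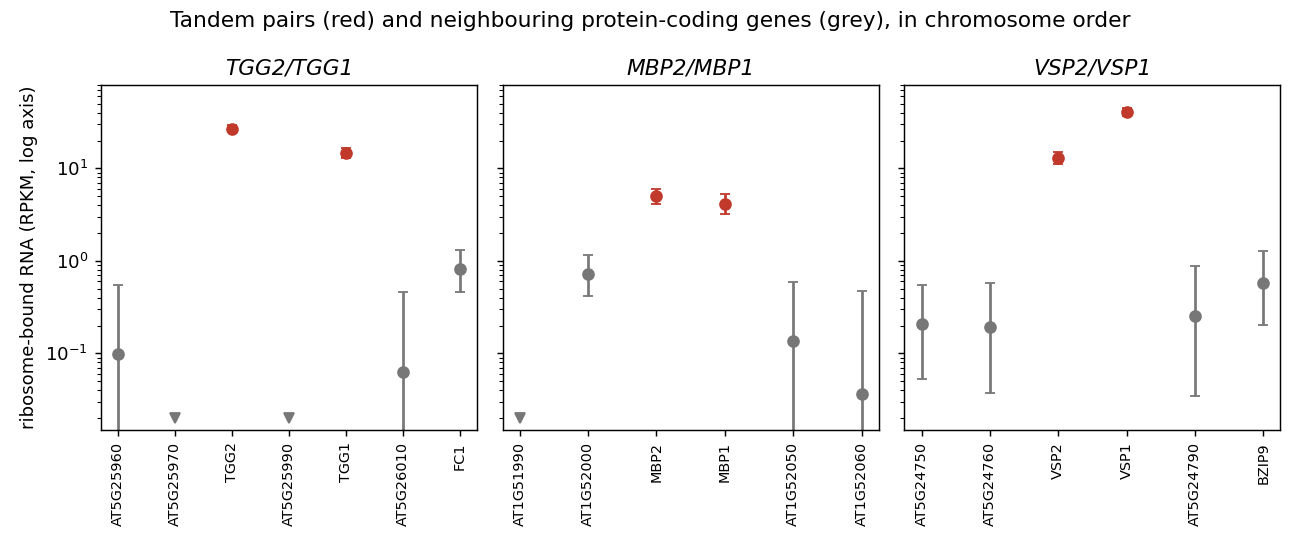
Ribosome-bound RNA in RPKM on a log axis with 95% counting intervals for the tandem pairs (red) and the neighbouring protein-coding genes (grey) in chromosome order, triangles marking genes listed at 0. Every gene of a pair lies above its grey neighbours, of which FC1 at 0.815 RPKM is the highest.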

How the data were processed

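The submitters' processing notes name build TAIR9, Bowtie 0.12.7 and cutadapt 0.9.5. The deposited table gives, per the file headers, the count of clones, an estimated count weighted by the authors, RPM and RPKM for each of 37318 transcripts. The deposited hotspot list gives a score for each interval, and its name carries an FDR of 5%. No label or header names the caller. Hotspots were read as BED, and their position can be off by 1 nt, since the file does not say how it counts.

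The members and lists were chosen with earlier results of these data known. For each gene the isoform of longest coding sequence in both the table and the RefSeq annotation of TAIR10.1 was used. TAIR9 hotspots were set on that annotation by overlap of at least 1 nt after a check of register, in which 82.3% of nuclear hotspot bases lay in same-strand exons, 64.2% after a move of 100 nt and 45.2% after 1000 nt. Sequences were read from TAIR10.1 at TAIR10.1 annotation coordinates, and hotspot sequences are not printed. For the comparison of hotspots with the other copy and with the genome, mRNA bases at the hotspot positions on TAIR10.1 were used. Intervals are 95% Poisson intervals on weighted clones and Clopper-Pearson intervals for ratios, on rounded weighted clones. Their code was tested on simulated whole counts, which does not cover weighted clones or the lowest counts. Depth per gene is low, with a median of 3.5 weighted clones, so single values of low genes are imprecise. Copies were aligned with Biopython 1.88, with scipy 1.17.1 for intervals. Named genes are the 8, the highest and lowest of each list and the 5 genes most like VSP1. Some of the neighbours of the pairs and some of the cell type markers are named too. NSP1, NSP2, NSP3, NSP5 and JAZ9 were named after their values were seen. Alternatives were the isoform, the weights, the transcript length, the background genes and the rule for a hotspot.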

Additional observations from a re-analysis of the deposited data

How the results depend on the processing

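Of 61 values recomputed under an alternative, 46 stayed within the margin set for them (the counting interval, or 1.5 times for a count), 15 moved and none reversed. Some of the 46 could not move. In TGG1, MBP1, MBP2, ESM1, VSP1 and VSP2 the isoform of highest RPKM was the one already used. The annotated length of ESP equals the listed one. The count of 46 therefore overstates how far the values were checked. Without the weights the median of the 8 genes was 13.0 RPKM and 28.0-fold over the median gene. Against other backgrounds that fold was 46.3 with genes at 0 included, 22.8 with the background held to mean weights of 0.5 or more and 7.72 with it held to 10 or more weighted clones, since each changes the genes compared. Members at 10 times the median gene or more numbered 4 in the last of these, a count added after seeing the data. With the annotated transcript length VSP2 was 0.387 of VSP1, against 0.317 by the listed length, because the annotation gives VSP1 a length of 1318 nt where 1074 nt is listed. Levels of single genes stayed between 0.760 (ESM1, annotated length) and 1.61 (MBP1, without the weights) times the reported value. Members with a hotspot numbered 4 of 8 with hotspots below the median score, where 35.3% of genes had one. On the opposite strand they numbered 0, where 5.27% of all genes had one. No paired analysis was possible because each assay had 1 library. Depth limits ESP and ESM1 most, with 13 and 39 clones.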

Other observations

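How the mean weight of the authors ran with the share of a gene's sequence present elsewhere in the genome depended on the stretch counted. ESM1 had the largest share of 20-mers found elsewhere, 24.6% of its annotated mRNA, and a mean weight of 0.908. In its coding sequence that share was 1.03%, and the annotated mRNA of 1951 nt is longer than the 1483 nt listed. In coding sequence VSP2 had 21.2%, VSP1 21.0%, MBP1 19.1%, MBP2 14.1%, TGG2 9.29%, TGG1 8.65% and ESP 1.49%. By coding sequence, ESM1 and ESP had the lowest shares and the highest mean weights. The order was not exact, since VSP1 had a mean weight of 0.776 and MBP1, with a lower share, 0.620. No test of this relation was made.

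The genes most like VSP1, by the distance over 2 measures (percentile of RPKM and percentile of hotspot nt per kb), were AT1G77030, AT1G78040, LHB1B1, PIP1B and AGT. Their levels were 63.3, 17.3, 13.9, 21.3 and 12.1 RPKM and their distances ran from 0.0698 to 0.974 percentile points. AT1G77030, a putative RNA helicase gene, had a mean weight of 0.152, and LHB1B1, a light-harvesting protein gene, 0.338. The likeness is over 1 library of each assay and says nothing on shared control.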
